A study of Mus musculus with 6 samples.

Results

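This section concerns 72 glycosyltransferase genes, most of which build the glycans of glycoproteins and mucins. The genes were chosen by name from the 15644 array genes that carry a symbol. They are every measured gene of the sialyltransferase (St3gal, St6gal, St6galnac, St8sia), galactosyl- and N-acetylgalactosaminyltransferase (B3gal, B4gal, Galnt), N-acetylglucosaminyltransferase (B3gnt, Mgat) and fucosyltransferase (Fut) series. The rule leaves out 6 enzymes of glycolipid synthesis (St3gal5, St8sia1, B4galnt1, B4galt5, B4galt6 and B3gnt5). Some of the 72 that remain act on glycolipids, among them B3galt4, B3galnt1 and St8sia5. The rule uses gene names and no measured value, but it was set with earlier results of these data known. The study compared liver RNA of mice labelled as deficient in Ugcg with that of mice labelled wildtype, on 3 Affymetrix arrays each: wildtype (WT) arrays 426, 428 and 430 and knockout (KO) arrays 427, 429 and 431, in both cases total RNA labelled with biotin. The sources used here give no strain, age, sex, allele or deleted cell type, and do not say whether each array stands for 1 animal, so the tests measure the spread between these arrays, which may be technical. All values are log2 expression values, and each difference is KO minus WT.

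Ugcg makes glucosylceramide, the first sugar-bearing step of most glycolipids. The 72 genes act in the neighbouring routes of the Golgi, where enzymes add sugars 1 at a time to proteins and, for some, to lipids as well. Mucin-type O-glycans start with N-acetylgalactosamine (GalNAc) on serine or threonine. N-glycans are branched with N-acetylglucosamine (GlcNAc), and both kinds are then lengthened with galactose and GlcNAc and capped with fucose or sialic acid. The liver secretes most glycoproteins of plasma, whose sialic acid keeps them from removal by the asialoglycoprotein receptor of hepatocytes.

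The array medians lay between 6.79 and 6.81, and precision is limited by having 3 arrays a genotype. The first principal component of all genes held 31.5% of the variance and placed KO 427 (-11.9) and WT 430 (-14.5) apart from the other 4 arrays (3.69 to 9.44). The 6 measured hepatocyte markers read between 12.44 and 14.69 on every array. Relative to the WT mean they averaged -0.0323 to 0.0312 on the WT and 0.0330 to 0.0947 on the KO arrays. Tat was higher on every KO array (0.43, limma adjusted p = 0.951) and Cyp2e1 lower (-0.0537), while the others overlapped. The 4 measured B cell and plasma cell markers averaged -0.0452 to 0.0269 on the WT and -0.118 to -0.0515 on the KO arrays. Of these only Jchain was lower on every KO array (-0.29, limma adjusted p = 0.951). The 9 measured genes of the exocrine pancreas averaged 1.83 above their WT mean on WT 430 and 0.81 to 1.01 below it on the other 5 arrays. The 7 measured bile duct markers averaged 0.41 above their WT mean on KO 429, and between -0.0607 and 0.0450 on the other arrays. Krt19, Muc1 and Epcam carried that average, while Krt7, Sox9, Cftr and Tff2 on KO 429 lay within the range of the other arrays. The 5 measured adipose and muscle markers averaged 0.50 above it on KO 427 and 0.42 on KO 431, against -0.0788 to 0.0670 elsewhere. Different genes carried these averages: the muscle genes Acta1 (8.48) and Ckm (7.29) were highest on KO 427, and the adipocyte genes Adipoq (6.92) and Fabp4 (8.99) on KO 431, while Myh4 was highest on neither. The 5 neutrophil markers averaged 0.46 above their WT mean on KO 431 and 0.21 above it on KO 429. On KO 431 the average was carried by S100a8 (7.76) and S100a9 (7.59), both highest there. Elane (6.875) and Mpo (6.29) on KO 431 lay within the range of the other arrays, and Ngp (6.28) was lowest there. The 7 Kupffer cell and macrophage markers averaged 0.40 below theirs on KO 431 and 0.21 above it on KO 429. Ugcg itself read 6.81, 6.85 and 6.87 on the WT and 7.12, 6.70 and 6.68 on the KO arrays, so its probe set does not check the labels. In such bulk samples, fewer cells of a type and less RNA per cell cannot be told apart.

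The comparison asked whether transcripts of these glycosyltransferases differed between livers labelled Ugcg-deficient and wildtype. None of the 72 genes passed the limma test at a Benjamini-Hochberg adjusted p under 0.05 over all genes (smallest adjusted p = 0.982), where 0.0245% of all 16331 gene probe sets passed. At an unadjusted p under 0.05 the count was 0 as well, against 4.99% of all probe sets. The differences were small. They ran from -0.14 for B3galnt1 to 0.24 for St3gal1, with 41 above 0 and 31 below, and their median of 0.0120 lay near the 0.00586 of all probe sets. The 95% interval of the difference lay within 1.5-fold either way for 69 of the 72 genes, against 97.1% of all probe sets, and within 2-fold for all 72. The exceptions to the narrower bound were B3galt1 (-0.85 to 0.93), St3gal1 (-0.26 to 0.75) and St3gal4 (-0.24 to 0.68).

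**Figure D1:**
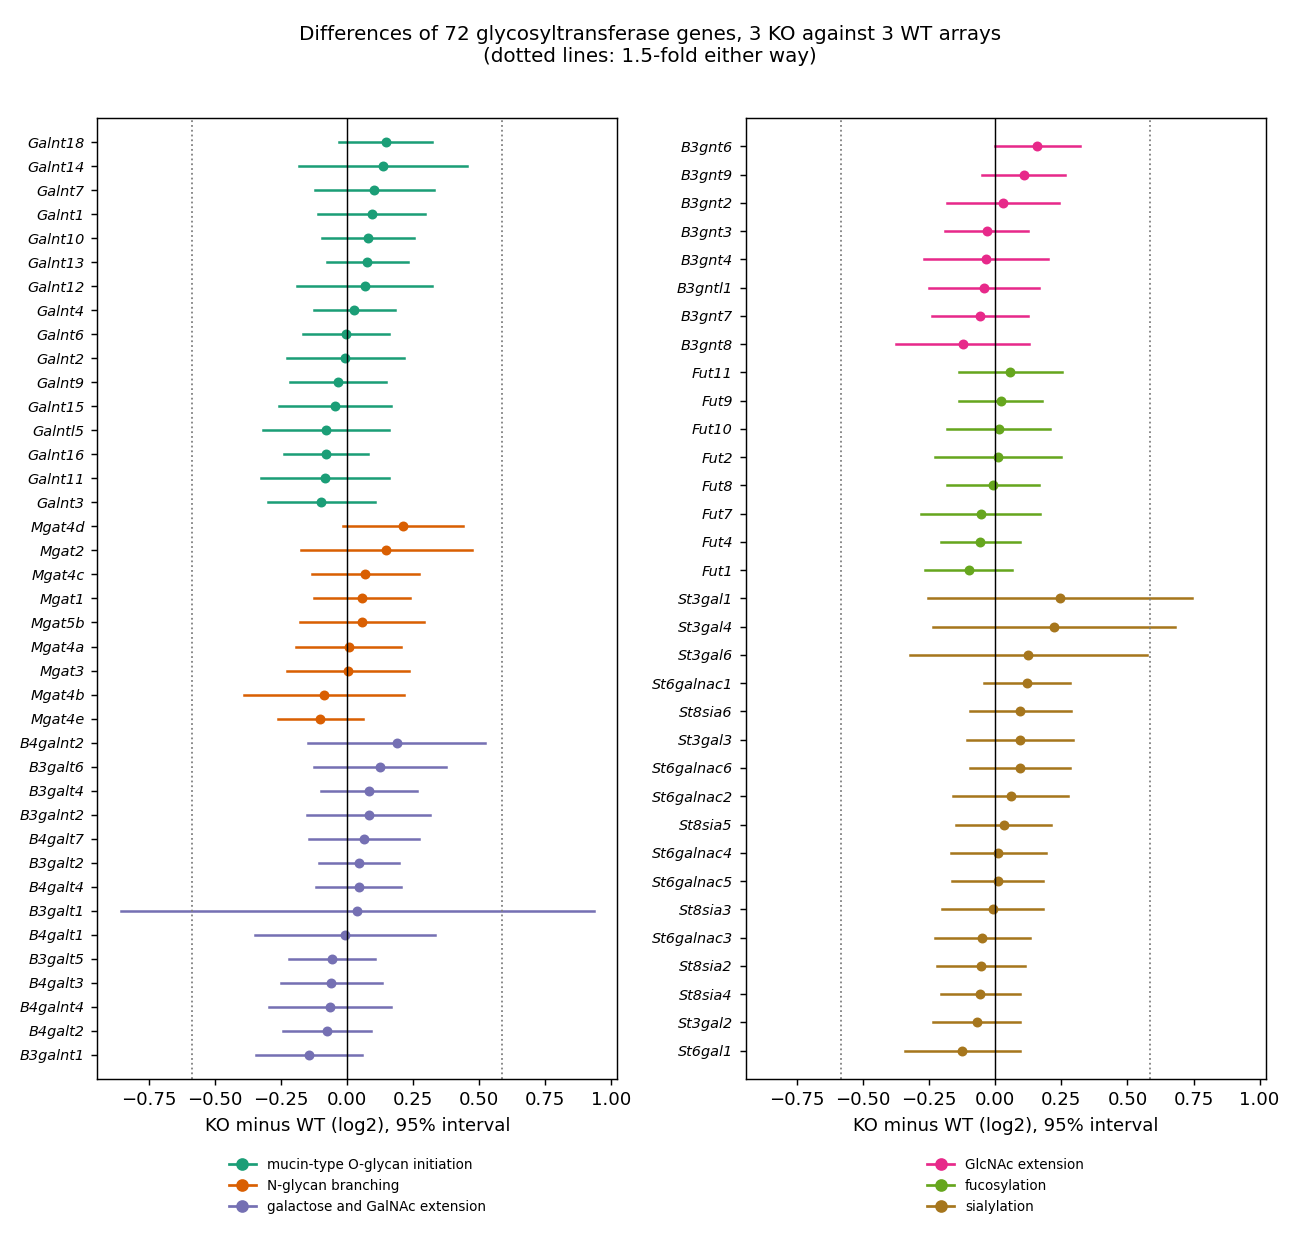
KO minus WT on the log2 scale for each of the 72 genes, with 95% intervals from limma over 3 against 3 arrays, grouped by the sugar step and ordered by the difference; dotted lines mark 1.5-fold. Every interval includes 0, and the intervals of B3galt1, St3gal1 and St3gal4 cross a dotted line.

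**Figure D2:**
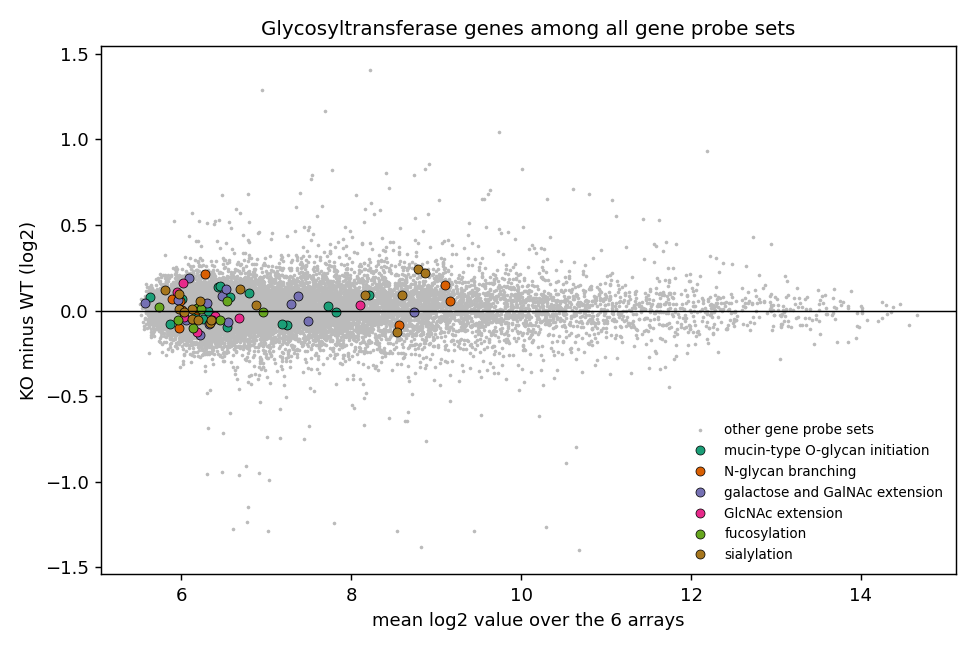
KO minus WT against the mean log2 value over the 6 arrays for all gene probe sets (grey) and the 72 glycosyltransferase genes (coloured by sugar step). The 72 genes lie between -0.14 and 0.24, inside the cloud of the other probe sets.

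A mean at or below the 40th percentile of all probe sets (6.51) was found for 44 of the 72 genes, near the low end of the value range. The other 28 genes had a median difference of 0.0356, against 0.00911 for all probe sets above that percentile. The groups did not overlap for 5 genes, all among the dim 44. The 3 KO values lay above the 3 WT values for B3gnt6, B3gnt9, Galnt18 and St6galnac1, which is 4 of 72 or 5.56%, against 5.1% of all probe sets. They lay below for St8sia4 alone (1.39%), against 4.47% of all probe sets. The first share is near the background, and the second rests on 1 gene.

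The SD between arrays within genotypes had a median of 0.109 over the 72 genes and 0.103 over all probe sets. For most members it was larger than the size of the difference between genotypes. The range over the 6 arrays exceeded 0.5 for 8 of the 72 genes (11.1%), near the 10.8% of all probe sets: B3galt1, St3gal1, St3gal6, St3gal4, Mgat2, B4galt1, B4galnt2 and Galnt14. KO 427 and WT 430, the arrays that stood apart above, were both higher than the other 4 arrays for 6 genes. These were B3galt1, St3gal1, B4galt1, B3galnt2, B3galt6 and Fut11, or 8.33%, against 9.28% of all probe sets. Both arrays were lower than the other 4 for B3galnt1, Galnt1, Galnt3, Galnt15 and Mgat4b, a pattern not counted over all probe sets.

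Start regions are shown side by side for the 3 widest-ranging genes that had KO 427 and WT 430 among their 3 highest arrays. A listed window outside other protein-coding genes was also required. The array patterns of the 3 genes differed. B3galt1 and B4galt1 had both arrays above the other 4, but in St3gal4 KO 427 read no higher than KO 431 (both 9.06). The genes were chosen after their values were seen. Each run gives the 250 bases before the annotated start (RefSeq, GRCm38.p6), with matches to 4 motifs in capitals, searched on both strands: the GC box (GGGCGG), the CCAAT box (CCAAT), the TATA box (TATAAA) and an E-box (CACGTG). B3galt1 has 2 listed starts, of which the outer is shown (chr2:67565439-67565688, plus strand). St3gal4 lies at chr9:35116865-35117114 and B4galt1 at chr4:40853985-40854234, both on the minus strand; the St3gal4 window lies within the noncoding gene 4930581F22Rik.
B3galt1: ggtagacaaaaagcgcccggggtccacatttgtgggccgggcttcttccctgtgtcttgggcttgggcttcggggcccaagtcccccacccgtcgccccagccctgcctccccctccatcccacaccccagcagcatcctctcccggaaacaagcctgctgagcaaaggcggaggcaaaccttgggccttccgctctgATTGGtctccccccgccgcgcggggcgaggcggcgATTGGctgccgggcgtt
St3gal4: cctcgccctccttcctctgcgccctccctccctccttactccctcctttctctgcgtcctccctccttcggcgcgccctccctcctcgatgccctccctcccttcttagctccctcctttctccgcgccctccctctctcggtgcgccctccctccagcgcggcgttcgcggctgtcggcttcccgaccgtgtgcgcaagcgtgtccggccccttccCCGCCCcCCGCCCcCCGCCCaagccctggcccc
B4galt1: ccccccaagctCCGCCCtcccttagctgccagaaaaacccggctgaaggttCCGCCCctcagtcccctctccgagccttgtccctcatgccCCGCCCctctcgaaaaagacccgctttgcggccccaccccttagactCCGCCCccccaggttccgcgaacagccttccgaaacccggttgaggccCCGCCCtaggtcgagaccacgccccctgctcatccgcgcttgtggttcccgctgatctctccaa

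B4galt1 held 5 GC boxes in this window and St3gal4 held 3, while B3galt1 held none and had 2 CCAAT boxes instead. None of the 3 windows matched the TATA box or the E-box. Of all 32851 windows in the table, 32.7% held a GC box, 33.8% a CCAAT box, 12.4% the TATA box and 6.02% the E-box. Windows were listed for 52 of the 72 genes (73 windows, some from the same gene). Among them 49.3% held a GC box, 30.1% a CCAAT box, 1.37% the TATA box and 6.85% the E-box, and their median GC content was 60.0% against 52.4% over all windows. A match is a run of letters, and factor binding was not measured.

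**Figure D3:**
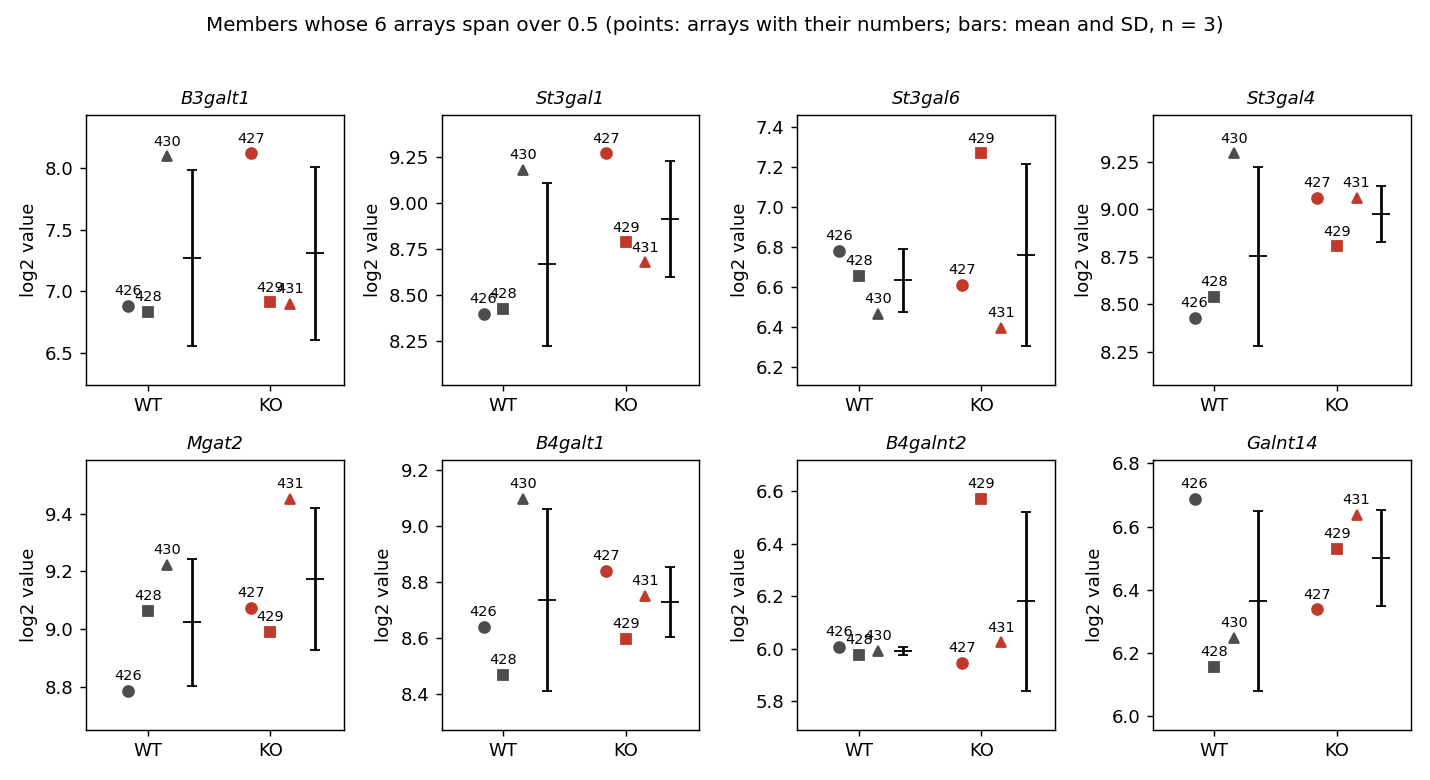
Log2 values per array for the 8 genes whose 6 arrays span over 0.5, with WT in grey and KO in red, array numbers beside the points, and bars for mean and SD (n = 3). B3galt1 and St3gal1 have their highest values on WT 430 and KO 427, whereas St3gal6 and B4galnt2 have 1 high array, KO 429.

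O-glycan initiation is carried out by the polypeptide GalNAc-transferases. Of 16 measured members, 8 had a difference above 0 and 8 below, with a median of 0.0120 and none at an unadjusted p under 0.05. Galnt1 and Galnt2 encode broadly expressed enzymes that act on bare peptides. Galnt1 read 8.19, 8.26 and 8.04 on the WT and 8.13, 8.36 and 8.28 on the KO arrays. Galnt2, which glycosylates regulators of plasma lipids, read 7.74, 7.80 and 7.92 on the WT and 7.72, 7.72 and 8.01 on the KO arrays. The groups overlapped for both genes, whose differences were 0.0938 (SE 0.0892) and -0.00651 (SE 0.0976). Galnt18 read 6.46, 6.41 and 6.28 against 6.54, 6.58 and 6.47, so every KO array lay above the WT arrays by a small margin (0.15, SE 0.0769, limma adjusted p = 0.982). Galnt14 read 6.69, 6.16 and 6.25 on the WT arrays, with WT 426 above all others, and 6.34, 6.53 and 6.64 on the KO arrays; its difference of 0.14 became 0.30 without WT 426.
Galnt7, whose enzyme needs a peptide that already carries GalNAc, differed by 0.10, with WT 426 lowest (6.60) and KO 431 highest. Galnt11 differed by -0.0840, with KO 431 lowest at 6.97 and the other 5 arrays between 7.24 and 7.39. The other 10 members (Galnt3, Galnt4, Galnt6, Galnt9, Galnt10, Galnt12, Galnt13, Galnt15, Galnt16 and Galntl5) differed by -0.0973 to 0.0789.

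The Mgat enzymes add the GlcNAc branches of N-glycans. Of 9 measured members, 7 had a difference above 0 and 2 below, with a median of 0.0563. Mgat1, whose enzyme opens the route to hybrid and complex N-glycans, read 9.18, 9.15 and 9.08 on the WT and 9.18, 9.31 and 9.08 on the KO arrays, a difference of 0.0573 (95% interval -0.12 to 0.24). Mgat2, which adds the next branch, read 8.79, 9.06 and 9.22 on the WT and 9.07, 8.99 and 9.45 on the KO arrays. Its lowest array was a WT and its highest a KO array, and the other 4 overlapped (difference 0.15, SE 0.143, limma adjusted p = 0.984). Mgat4b, a further branching enzyme, read 8.80, 8.71 and 8.32 on the WT and 8.33, 8.62 and 8.61 on the KO arrays. WT 430 and KO 427 were its lowest arrays. Mgat4d, whose product in testis inhibits the Mgat1 enzyme, had the smallest p of the group, with 6.29, 6.20 and 6.02 against 6.40, 6.22 and 6.52 (difference 0.21, SE 0.101, limma adjusted p = 0.982). Its readings are dim, and KO 429 lay within the WT range. Mgat3, which adds the bisecting GlcNAc, Mgat4a, Mgat4c, Mgat4e and Mgat5b differed by -0.10 to 0.0700. Mgat5 was not analysed here.

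Chains are lengthened by galactose and GalNAc transferases of the B3gal and B4gal series. Of 14 measured members, 8 had a difference above 0 and 6 below, with a median of 0.0418. B4galt1, the main enzyme that puts galactose on N-glycan branches, read 8.64, 8.47 and 9.10 on the WT and 8.84, 8.60 and 8.75 on the KO arrays. WT 430 was highest, and the 3 KO values lay inside the WT range (difference -0.00716, SE 0.149). B4galt3 of the same series read 7.43, 7.55 and 7.59 against 7.37, 7.42 and 7.60, a difference of -0.0602. B3galt1, which makes galactose-capped type I chains, had the widest range of all members, 1.29. It read 6.88, 6.84 and 8.10 on the WT and 8.12, 6.91 and 6.90 on the KO arrays. Thus 1 array of each genotype read about 8.1 and the other 4 about 6.9, and the difference was 0.0394 (SE 0.394). The pancreatic markers were high on WT 430 but not on KO 427, and the muscle gene Acta1 read 8.48 on KO 427 and 6.28 to 6.63 elsewhere. The part of either in the B3galt1 readings was not tested.
B4galnt2, whose enzyme makes the Sd(a) blood group structure, read 6.01, 5.98 and 5.99 on the WT and 5.95, 6.57 and 6.02 on the KO arrays. Only KO 429 was above the rest, and the difference of 0.19 (SE 0.147) was -0.00806 without it. On the same array the bile duct and epithelial markers Krt19 (7.60 against 6.33 to 6.46), Muc1 (7.18 against 6.22 to 6.31) and Epcam (6.86 against 6.22 to 6.40) were also highest. The other 4 measured markers of the list were not: Krt7 (6.52), Sox9 (6.70), Cftr (5.61) and Tff2 (6.77) were each matched or exceeded on another array. The part of these markers in the B4galnt2 reading was not tested. B3galnt1, a GalNAc-transferase of globoside synthesis, had the lowest difference of the 72 genes. It read 6.33, 6.41 and 6.11 on the WT and 6.12, 6.14 and 6.17 on the KO arrays, with WT 430 below every KO array. The other 10 members, B3galnt1 included, differed by -0.14 to 0.13. They are B4galt7 and B3galt6, which build the linker of proteoglycans, B3galnt2, which acts on dystroglycan, B3galnt1, B3galt2, B3galt4, B3galt5, B4galnt4, B4galt2 and B4galt4.

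The B3gnt enzymes add GlcNAc in chain extension. Of 8 measured members, 3 had a difference above 0 and 5 below, with a median of -0.0337. B3gnt2, the main enzyme of poly-N-acetyllactosamine chains, read 7.95, 8.07 and 8.25 on the WT and 8.14, 8.20 and 8.02 on the KO arrays, a difference of 0.0303 (SE 0.0932). B3gnt6, which makes a mucin O-glycan core of the gut, had the smallest p of all 72 members. It read 5.91, 6.01 and 5.91 on the WT and 6.17, 6.06 and 6.08 on the KO arrays, so the groups did not overlap (difference 0.16, 95% interval -0.000895 to 0.32, limma adjusted p = 0.982). B3gnt9 did not overlap either, at 5.94, 5.92 and 5.83 against 6.02, 6.04 and 5.95. Both genes read near the low end of the arrays. B3gnt8, B3gnt4 and B3gntl1 had overlapping groups and differences of -0.12, -0.0348 and -0.0413. B3gnt3, B3gnt7, B3gnt8 and B3gnt4 all lay at or below the 40th percentile, and the first 2 differed by -0.0326 and -0.0575.

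The 8 measured fucosyltransferase genes divided evenly, 4 above 0 and 4 below, with a median of 0.00106. They had the narrowest span of the groups, from -0.10 for Fut1 to 0.0563 for Fut11. Fut8, which adds the core fucose of N-glycans, read 6.96, 7.00 and 6.93 on the WT and 6.87, 7.07 and 6.93 on the KO arrays. The difference was -0.00749, with a 95% interval of -0.18 to 0.17. Fut11 read 6.53, 6.35 and 6.64 against 6.59, 6.57 and 6.53. Fut2, an H antigen enzyme of secretory epithelia, read 6.19, 6.24 and 6.24 on the WT arrays and 6.45, 6.22 and 6.02 on the KO arrays, so that 2 KO arrays bounded all WT values from above and below. Fut7, which completes selectin ligands on leukocytes, read 6.50, 6.31 and 6.63 against 6.49, 6.50 and 6.29. Fut1, Fut4, Fut9 and Fut10 differed by -0.10 to 0.0202.

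Sialic acid caps the chains, and the group held the highest single difference of the 72 genes. Of 17 measured members 11 lay above 0 and 6 below, with a median of 0.0319 and none at an unadjusted p under 0.05. St3gal1, which sialylates the galactose of short mucin-type O-glycans, read 8.40, 8.42 and 9.18 on the WT and 9.27, 8.79 and 8.68 on the KO arrays. WT 430 lay among the KO values, and the other WT arrays lay below all KO arrays. The means were 8.67 ± 0.44 and 8.91 ± 0.32 (SD, n = 3 each), and the difference of 0.24 had an SE of 0.221. St3gal4, which caps N-glycans of plasma proteins such as von Willebrand factor, read 8.43, 8.54 and 9.29 on the WT and 9.06, 8.80 and 9.06 on the KO arrays. Here WT 430 was the highest of all 6 arrays, and the other WT arrays were again the lowest. The means were 8.75 ± 0.47 and 8.97 ± 0.15 (SD, n = 3 each), and the difference of 0.22 had an SE of 0.202.
Without WT 430 the difference was 0.50 for St3gal1 and 0.49 for St3gal4, and without KO 427 it was 0.0651 for St3gal1 and 0.180 for St3gal4. With WT 430 and KO 427 both left out it was 0.32 and 0.45. Neither gene passed in any of these fits, and the adjusted p from limma over all alternatives spanned 0.487 to 0.9997 in St3gal1 and 0.379 to 0.9997 in St3gal4. The pancreatic markers were high on WT 430 but not on KO 427, where St3gal1 was highest. Their part in the readings of both genes was not tested.
St3gal6, which sialylates N-acetyllactosamine, read 6.78, 6.66 and 6.46 on the WT and 6.61, 7.27 and 6.40 on the KO arrays. KO 429 alone was high, as for B4galnt2, and the difference of 0.13 was -0.13 without it. St3gal3 read 8.48, 8.73 and 8.44 against 8.66, 8.63 and 8.63.

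St6gal1, given although the naming rule did not select it, makes the sialic acid linkage that predominates on plasma N-glycans and is itself secreted by hepatocytes. It read 8.54, 8.66 and 8.59 on the WT and 8.67, 8.39 and 8.36 on the KO arrays. Of the KO arrays 2 lay below all WT arrays and KO 427 lay just above them (difference -0.12, 95% interval -0.34 to 0.0930, limma adjusted p = 0.982). Without KO 427 the difference was -0.22. St6galnac1, which caps the first GalNAc of O-glycans, read 5.69, 5.78 and 5.75 against 5.83, 5.95 and 5.82. St8sia4, a polysialic acid synthase, read 6.21, 6.23 and 6.22 against 6.19, 6.11 and 6.19, a difference of -0.0557 (SE 0.0661). These 2 genes had groups that did not overlap, at margins below 0.1. St3gal2, St6galnac2 to St6galnac6, St8sia2, St8sia3, St8sia5 and St8sia6 differed by -0.0703 to 0.0954.

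**Figure D4:**
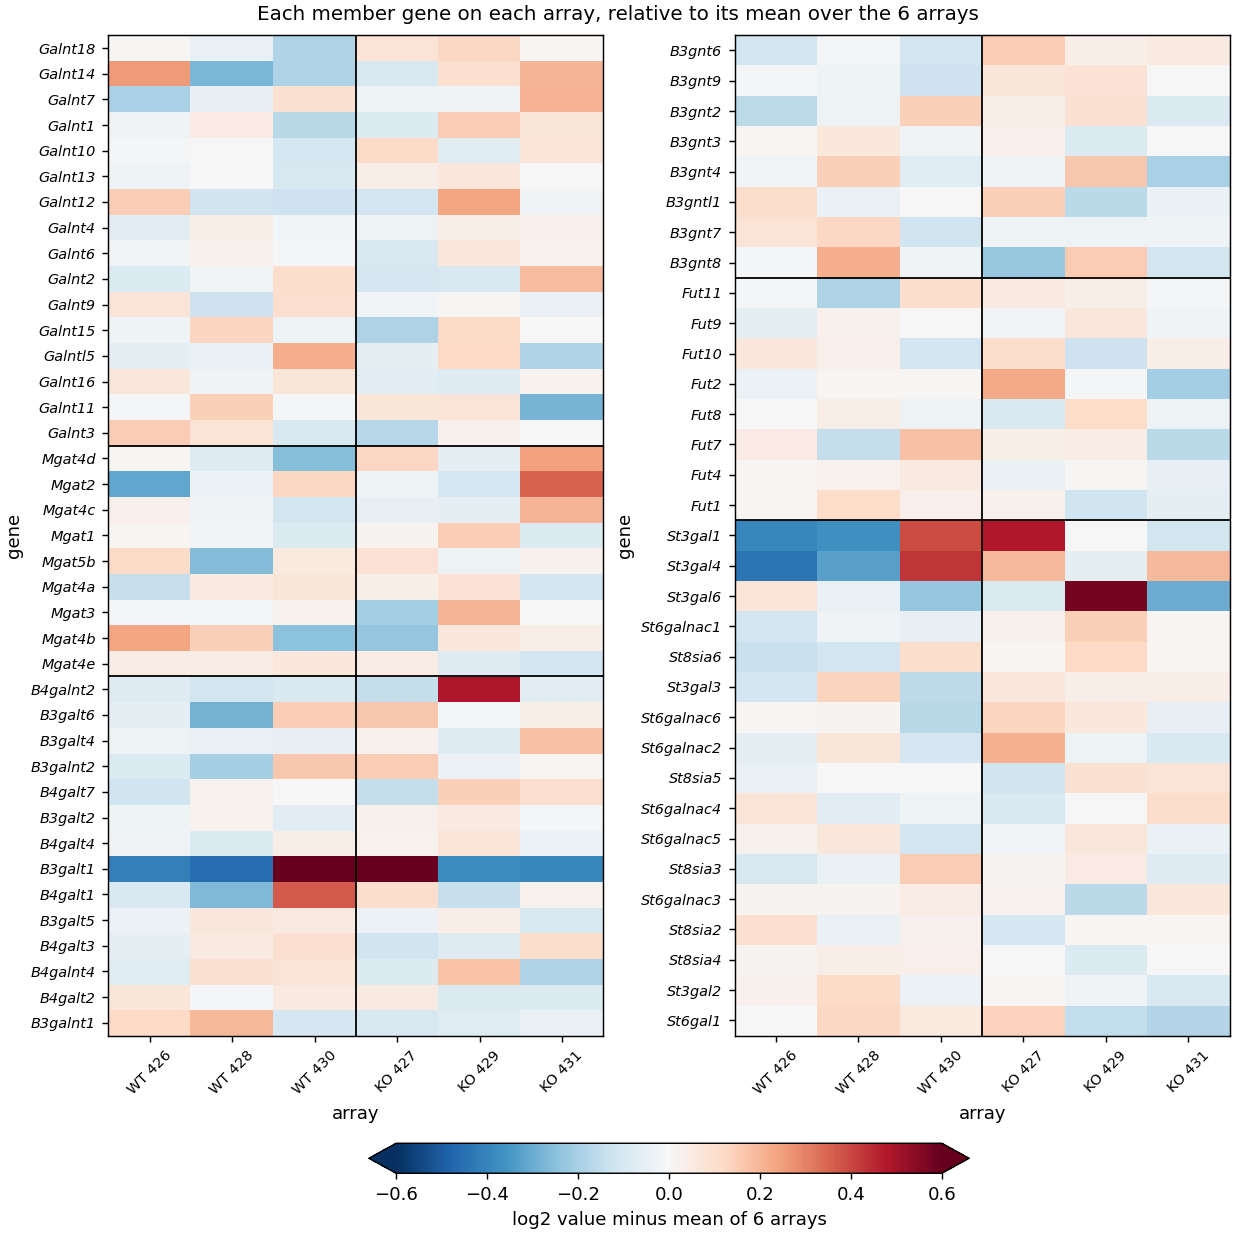
Log2 value of each of the 72 genes on each array minus its mean over the 6 arrays, WT to the left and KO to the right of the vertical line; the scale is capped at 0.6 either way. The highest values of B3galt1 and St3gal1 fall on WT 430 and KO 427, that of St3gal4 on WT 430, and those of B4galnt2 and St3gal6 on KO 429.

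Several of the 72 enzymes also act on glycolipids. For 6 of them whose known acceptors include gangliosides or globosides (B3galt4, B3galnt1, St3gal2, St6galnac5, St6galnac6 and St8sia5, listed after the values were seen), the differences ran from -0.14 to 0.0938 with a median of 0.0208. That list is not complete, and St3gal1, with the highest difference of the 72 genes (0.24), is not on it. Among the 6 glycolipid enzymes that the rule leaves out, 2 had an unadjusted p under 0.05 and groups that did not overlap. B4galt5, the main lactosylceramide synthase, read 7.47, 7.09 and 7.20 on the WT and 7.85, 7.79 and 7.53 on the KO arrays (0.47, SE 0.118). St3gal5, the GM3 synthase, read 8.63, 8.94 and 8.70 against 8.49, 8.35 and 8.63 (-0.27, SE 0.104). Neither passed over all genes (limma adjusted p = 0.804 and 0.952), and the difference between these 6 and the 72 was not tested.

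Other genes of the same pathways were described from 8 lists, those 6 enzymes included. Of 156 measured genes in all, none passed the adjusted threshold (smallest limma adjusted p = 0.804), and 8, or 5.13%, had an unadjusted p under 0.05, near the 4.99% of all probe sets. Nucleotide sugar synthesis had 1 gene above and 1 below 0 at that level among 25. These were Pgm3, which makes an intermediate of UDP-GlcNAc (0.33, SE 0.102), and Gfpt2, an enzyme at the entry of that route (-0.21, SE 0.0718). N-glycan assembly and trimming had 2 above and 1 below among 37. Ddost, a subunit of the oligosaccharyltransferase that moves the N-glycan to protein, read 9.74, 9.87 and 9.81 on the WT and 9.96, 9.98 and 10.04 on the KO arrays, and Ostc of the same complex differed by 0.26 (95% interval 0.0274 to 0.48). Alg6, which adds a glucose to the lipid-linked precursor, differed by -0.21 (SE 0.0888). Among 14 sialidases and other exoglycosidases Neu3, a membrane sialidase that acts on gangliosides, differed by 0.23 (SE 0.0908). The remaining lists had 0 genes at that level: 12 nucleotide sugar transporters of the Golgi (-0.11 to 0.14), 26 other O-glycan and extension enzymes (-0.14 to 0.16), 12 sulfotransferase and acetylation genes (-0.20 to 0.24) and 24 lectins (-0.11 to 0.13). Groups that did not overlap, at an unadjusted p above 0.05, were found for Nans, the sialic acid synthase (0.0817), Alg5 (0.12), Gcnt2 (0.0980), Mfng (0.15), Gbgt1 (0.14), Chst10 (0.24), Gal3st1, the sulfatide synthase (0.13), and Lman2 (0.13), all higher in KO. They were found lower in KO for Ugp2, which makes UDP-glucose (-0.22), and Casd1, which acetylates sialic acid (-0.15). With Ddost, Gfpt2, B4galt5 and St3gal5 these make 10 higher and 4 lower of 156 genes, where 5.1% and 4.47% of all probe sets did so. Among the genes with the highest means, Cmah, which hydroxylates CMP-sialic acid, differed by 0.19, Slc35b1 by 0.14, Rpn1 by 0.11, B4galnt1 by 0.0964, C1galt1c1 by 0.0882 and Man1a by 0.00260. Slc35d2 differed by -0.11, Ugdh by -0.0970, Lgals9 by -0.0814, Man2b1 by -0.0729, Hexa by -0.0225 and B3gat3 by -0.0130. Asgr1, a subunit of the asialoglycoprotein receptor, differed by 0.00618.

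The median SE of a difference was 0.0871 over the 72 genes and 0.0847 over all probe sets, so the 95% interval reached 0.197 to either side at the median. With 1 array left out, between 0 and 4 members had an unadjusted p under 0.05. The largest count came without WT 430 (B3galnt1, B3galt6, St3gal1 and St3gal4), where 6.95% of all probe sets did, and no member passed the adjusted threshold in any fit (smallest limma adjusted p = 0.379).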

How the data were processed

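The authors deposited 1 table of expression values for 6 arrays, taken to be log2 from their span (5.38 to 14.69). The sources used here do not give the array type, background correction, normalization or software. Each row is named by 1 Entrez gene number; signal shared between similar paralogs was not tested. Of 16395 rows, 64 control rows were left out, and the values of the other 16331 were used as deposited. All 72 members matched the RefSeq gene table (GRCm38.p6). No detection calls were used.

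Groups came from the sample titles. KO was compared with WT across all genes by limma 3.58.1 in R 4.3.3 (lmFit and eBayes, two-sided, 4 residual and 4.85 prior degrees of freedom), adjusted by Benjamini-Hochberg across the 16331 probe sets, with a threshold of 0.05. The fit was also run on simulated data with independent normal values. These held no pattern shared between genes on an array, and their planted differences were larger than those of the members. That run therefore does not check the fit at the differences seen here. Figures were drawn with matplotlib 3.10.9. Lists are described by counts and medians.

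Members and lists were chosen with earlier results of these data known. Named were members with an unadjusted p under 0.05 (none), those whose groups did not overlap, and, per group, the 3 with the widest range and the 2 with the highest mean; others are named in ranges, and St6gal1, St3gal3, B3galnt1 and B3galt6 were singled out after their values were seen. Of the other lists, genes at an unadjusted p under 0.05, genes whose groups did not overlap and the 2 with the highest mean per list are named. Alternatives were quantile normalization, median centring, array quality weights, a filter on means at or below the 40th percentile, a robust variance with intensity trend, adjustment over genes with a symbol, leaving out each array, and leaving out WT 430 and KO 427.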

Additional observations from a re-analysis of the deposited data

How the results depend on the processing

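No member passed the adjusted threshold under any of the 13 alternatives. The number of members at an unadjusted p under 0.05 was 2 with an intensity trend and robust variance (B3gnt6 and Mgat4d; 5.12% of all probe sets), 4 without WT 430 and KO 427 (B3galnt1, St3gal1, St3gal4 and St6gal1; 6.75% of all probe sets), and 0 to 4 with 1 array left out (3.58% to 6.95%). The number whose groups did not overlap was 0 of the 28 members left by the filter, against 9.47% of all probe sets. That 0 was fixed beforehand, since the filter took out all 5 such genes of the main fit. The number was 6 after quantile normalization and 7 after median centring (9.93% of all probe sets each). It was 29 without both arrays (34.6% of all probe sets did so there, since fewer arrays overlap less). With 1 array left out it was 11 to 18 (17.2% to 22.2% of all probe sets). The median difference of the members was 0.0356 after the filter (0.00911 over all probe sets left) and -0.00163 without KO 429 (0.00260 over all probe sets). Of the 156 genes in the other lists, 13 had an unadjusted p under 0.05 without both arrays, and 4 to 15 with 1 array left out (15 without WT 430), where the shares of all probe sets were those given above.

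Of 29 named members, 16 turned sign in at least 1 alternative, and none was called in any. The named members were picked partly for a wide range. Of all 72 members, 33 turned sign in at least 1 fit with 1 array left out. With array quality weights the difference was 0.0308 for B4galt1, -0.00276 for Fut2 and 0.0176 for Galnt2. Without WT 430 and KO 427 it was 0.119 for B4galt1, 0.0166 for B4galt3, -0.0938 for Fut2, 0.0205 for Fut8 and 0.0935 for Galnt2. With 1 array left out it ran from -0.366 to 0.452 for B3galt1, -0.0411 to 0.109 for B3gnt2, -0.125 to 0.0549 for B3gnt4, -0.122 to 0.0295 for B3gntl1, -0.00806 to 0.306 for B4galnt2 and -0.141 to 0.174 for B4galt1. It ran from -0.0223 to 0.123 for Fut11, -0.101 to 0.113 for Fut2, -0.139 to 0.0192 for Fut7, -0.0655 to 0.0370 for Fut8, -0.145 to 0.0335 for Galnt11 and -0.103 to 0.0439 for Galnt2. It ran from -0.00260 to 0.112 for Mgat1, -0.232 to 0.00944 for Mgat4b and -0.130 to 0.306 for St3gal6. The cause of these changes was not tested. There were 3 arrays per genotype and no detection calls. For a typical member, the unadjusted limma interval could not tell differences under about 0.197 from 0. That value is not the limit of the adjusted threshold, which was stricter. B4galt5, outside the 72 members, differed by 0.47 (SE 0.118) in the main fit and did not pass (limma adjusted p = 0.804). For the 44 dim members, signal near the low end of the arrays limits what could be seen.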
